A study of Homo sapiens with 15 samples.

Results

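Introns longer than 500 nucleotides that the deposited splicing table scored as retained in HEK-293 cells, a human embryonic kidney line, were examined in libraries from cytoplasmic RNA and from polysomes. An intron was taken when its percent spliced in (PSI, here the share of informative reads that support retention) averaged 2 or more over the 8 control libraries and when at least 10 reads informed it in all 15 libraries. These rules left 847 introns, in 777 genes, of the 12710 introns over 500 nucleotides that had the reads and of the 721551 splicing events in the table. The other 11863 long introns had a mean control PSI under 2, and 609 introns of 500 nucleotides or less met the same PSI and read criteria. The introns were selected on the PSI of the control libraries, so their control levels are given as a description.

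The 3 Input GEMIN5 libraries held polyadenylated RNA of the cytoplasm of cells that had received the plasmid pcDNA3Xpress-Gemin5 with Lipofectamine LTX 24 h earlier, and the 4 Input control libraries held the same RNA of untreated cells. The 4 Polysome GEMIN5 and the 4 Polysome control libraries were from fractions 8 to 12 of a 12-fraction sucrose gradient, from cells treated in the same 2 ways, with cycloheximide present. The controls were not described as transfected with an empty plasmid, so transfection and raised GEMIN5 cannot be told apart. The labels do not say whether samples of a group were separate cultures, so p-values here cover only the spread among them, and that spread may be technical. GEMIN5 was at 1320 to 1540 CPM in Input GEMIN5 and 647 to 1030 CPM in Polysome GEMIN5 libraries, against 12.4 to 15.9 CPM in Input control and 4.19 to 7.18 CPM in Polysome control libraries. The 15 libraries held 11191417 to 18407933 gene-assigned reads. The marker sums that follow are scaled to the total of gene-assigned reads only. The summed level of 12 HEK-293 markers was 556 to 625 CPM in Input GEMIN5, 1160 to 1400 CPM in Input control, 904 to 1000 CPM in Polysome GEMIN5 and 889 to 1200 CPM in Polysome control libraries. On that scale the median log2 change of all 12197 tested genes, Input GEMIN5 over Input control, was -1.23. The lower HEK-293 sum in Input GEMIN5 is therefore not taken as a fall of these markers. The 18 liver markers summed to 0.799 to 3.08 CPM in the GEMIN5 libraries, against 0.835 to 128 CPM in Input control and 114 to 204 CPM in Polysome control libraries, and the 8 blood markers to 5.05 to 7.32 CPM in the GEMIN5 libraries, against 4.68 to 7.49 CPM in Input control and 12.1 to 18.2 CPM in Polysome control libraries. Of the 18 liver markers, 6 had a count in Input GEMIN5 and 10 in Polysome GEMIN5 libraries, against all 18 in either control group. The part of this liver RNA in the comparisons was not tested, and none of the 847 introns lies in a gene of the liver or blood marker lists.

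A retained intron is left in the mature RNA, so reads should cross both its upstream exon-intron boundary and its downstream intron-exon boundary. RNA from a transcript that ends inside the intron, at an internal polyadenylation site, crosses only the upstream boundary, and RNA that starts inside it crosses only the downstream one. GEMIN5 is an RNA-binding protein of the SMN complex, which assembles spliceosomal snRNPs, and it also binds ribosomes.

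The junction reads went against the label for most of the introns. Summed over the libraries, 557 of the 847 introns had over 3-fold more reads at the upstream boundary, 236 had over 3-fold more at the downstream boundary, and 54 had reads within 3-fold at both. One boundary had no read in any library in 485 introns, and 150 introns had no spliced read in any library. Some read fell at each boundary in 362 of the 847 introns. Only the 54 within 3-fold have the near-even reads of a whole retained intron, and they are called both-boundary introns here. The rest are called upstream-boundary or downstream-boundary introns, by the summed reads alone. The table's number for reads in the middle of the intron, which the table does not define, reached at least 25% of the mean boundary reads in 33 of the 54 introns, against 56 of the 557 upstream-boundary and 27 of the 236 downstream-boundary introns.

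**Figure D1:**
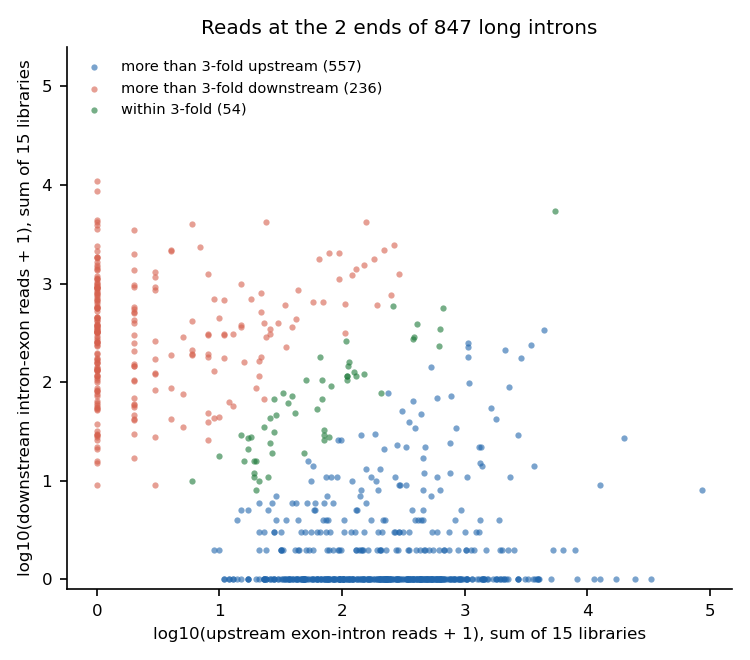
Reads at the upstream boundary (x axis) and downstream boundary (y axis) of each of the 847 introns, as log10 of the sum over 15 libraries plus 1. The 557 blue points lie below the band of 54 green points, many of them at 0 on the y axis, and the 236 red points lie above it.

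Splice-site sequences were read from annotated transcripts that run across the boundary (GENCODE release 29, GRCh38), which were found for 488 upstream and 315 downstream boundaries of the 847 introns. The sites below belong to introns whose values follow, and each shows a 5′ site with the first 2 intron bases in capitals. ZNF330, CTTN, DNAJA3, SNX24 and SRSF10 are upstream-boundary introns with higher PSI in Input GEMIN5, and KHSRP and RPL7L1 have reads at both boundaries.
ZNF330 (chr4:141222486-141222511, plus strand): tcaatgGTatcagctttttttgatat
CTTN (chr11:70407586-70407611, plus strand): tatcaaGTaagaggcgtcgccaccac
DNAJA3 (chr16:4437480-4437505, plus strand): tatgagGTaatatgacttcggtgcat
SNX24 (chr5:123001999-123002024, plus strand): ccagcgGTaatcaaacctgtcatctg
SRSF10 (chr1:23978693-23978718, minus strand): tgttcaATatcctttcttcagatggc
KHSRP (chr19:6415121-6415146, minus strand): cagcagGCaagtgggaattgccaccc
RPL7L1 (chr6:42886465-42886490, plus strand): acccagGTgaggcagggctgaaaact

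The KHSRP site starts with GC in place of GT. Of the 488 sites, 466 started with GT, 20 with GC (4.1%) and 2 with AT, against 25 GC sites of 2943 (0.849%) among the other long introns. The motifs GTAAGT and GTGAGT, searched at the first 6 intron bases on the transcribed strand, opened 66 of the 488 introns (13.5%), against 862 of 2943 (29.3%) of the other long introns. SRSF10, an SR-family splicing regulator, has one of the AT sites, and its 3′ end is AC; AT-AC introns are mostly spliced by the minor spliceosome. These shares cover only introns whose boundary lies inside an annotated exon, so they describe that subset.

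An annotated transcript of the same strand ended inside 259 of the 557 upstream-boundary introns (46.5%), 20 of the 54 both-boundary introns (37%) and 2044 of the other 11863 long introns (17.2%). More of the 557, 364 (65.4%), had an annotated exon of the same gene across the upstream boundary, against 23.7% of the other long introns. Whether the boundary reads came from transcript ends was not tested. Of those 259 introns, 155 had AATAAA or ATTAAA, the hexamers that direct cleavage and polyadenylation, in the last 50 bases of the transcript, read on its own strand (59.8%). The same search found them in 1 of the 20 both-boundary introns and in 231 of the 2044 other long introns (11.3%). A match describes these letters and is not evidence that the site is used. The ends below show 30 bases with the hexamer in capitals, in upstream-boundary introns whose values follow.
RNF41 (chr12:56210040-56210069, minus strand): ttgtgtaataacATTAAAgcttgattgact
EIF2B5 (chr3:184136934-184136963, plus strand): caaagattaaagAATAAActtgggtttttt
SNX24 (chr5:123002110-123002139, plus strand): taataatctgccAATAAAccagtgctcttg

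An exon of the same gene spanned the whole intron in 24 of the 54 both-boundary introns (44.4%), against 606 of the other long introns (5.11%). The last of several introns made up 27 of the 54 (50%), against 19.2% of the other long introns. Of the 847, 148 were the only intron of their transcript (17.5%), against 0.759% of the other long introns. An annotated transcript began inside 56 of the 236 downstream-boundary introns (23.7%), against 15.0% of the other long introns. More of the 236, 133 (56.4%), had an annotated exon of the same gene across the downstream boundary, against 21.6% of the other long introns. Coding sequence flanked 512 of the 847 introns, 5′ UTR 92 and 3′ UTR 13, and 230 belonged to noncoding transcripts. The share of noncoding transcripts was 27.2%, against 1.21% of the other long introns. Antisense genes held 100 of the 847 introns and lincRNA genes 62, and whether the reads were counted by strand is not given in the sources used here, so reads from a gene and its antisense partner cannot be told apart. The median length was 2019 nucleotides, with 2566 for upstream-boundary, 1380 for downstream-boundary and 902 for both-boundary introns. The longest were introns of LINC01481 (338377 nucleotides), AC011287.1 (326322) and NSMCE2 (174962), each with reads at one boundary only.

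Control PSI covered the whole range, from the threshold to 100. It was under 5 in 266 introns, 5 to 20 in 193, 20 to 80 in 151, 80 to 95 in 35 and 95 or more in 202. Of the 202 at 95 or more, 150 had no spliced read, among them the only intron of AC005736.2, with 19911 upstream and 0 spliced reads. The RPS20 intron of a ribosomal protein gene had 86194 upstream, 7 downstream and 4 spliced reads. The both-boundary introns had a median control PSI of 5.18, against 14.3 for upstream-boundary and 22 for downstream-boundary introns. Just inside the threshold lay PKMYT1 (2.01), MYL6B (2.03) and ATP23 (2.03), and just outside lay PRKRA (1.98), FASTK (1.98) and DNAAF5 (1.98).

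The upstream-boundary introns had a higher median PSI in Input GEMIN5 than in any other group. It was 23.3 ± 1.3 in Input GEMIN5 (SD, n = 3), against 13.8 ± 0.776 in Input control (n = 4), and 13.1 ± 1.33 in Polysome GEMIN5, against 14.1 ± 1.34 in Polysome control libraries (n = 4 each). The lowest Input GEMIN5 library was above the highest library of the other groups. In the both-boundary introns the Input medians ran the other way, at 4.04 ± 0.707 in Input GEMIN5 and 5.38 ± 0.377 in Input control libraries. The short introns had medians of 7.76 ± 0.202 in Input GEMIN5 and 7.46 ± 0.131 in Input control libraries, and the mean PSI of the other long introns was 0.165 to 0.185 in Input GEMIN5, against 0.101 to 0.108 in Input control, and 0.099 to 0.116 in Polysome GEMIN5, against 0.095 to 0.11 in Polysome control libraries. The PSI range for the test below was met by 251 of those other introns. Of these, 8 were higher and 0 lower in Input GEMIN5 than in Input control by limma. At an unadjusted p under 0.05, 52 were higher and 1 lower. Their mean control PSI is under 2, and the range asks for a PSI of at least 5 in some library. That choice favours higher GEMIN5 values, so these counts are not support for a rise.

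**Figure D2:**
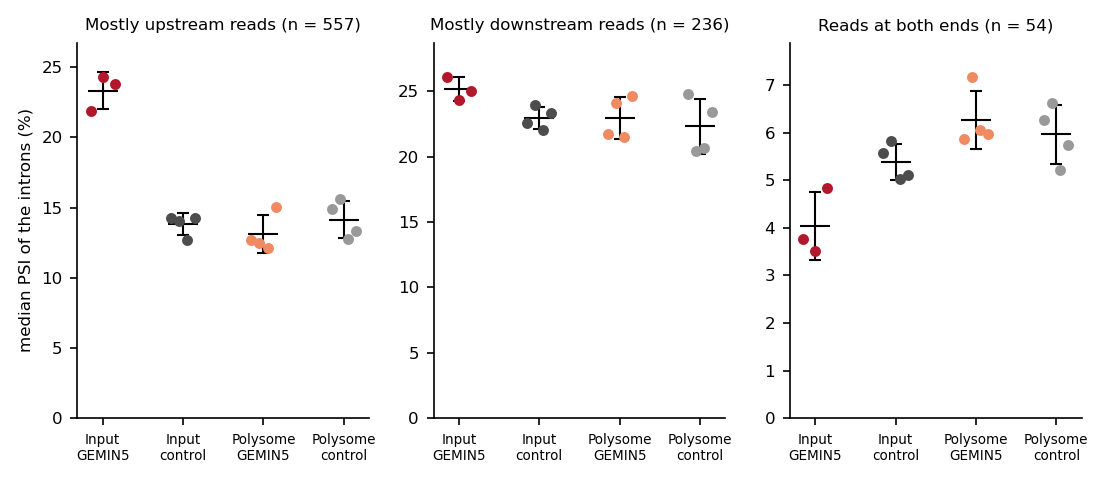
Median PSI (percent) of the introns in each library, one point per library, with the mean and SD as black bars, for introns with mostly upstream reads (557), mostly downstream reads (236) and reads within 3-fold at both ends (54). In the left panel the Input GEMIN5 libraries average 23.3 and the other groups 13.1 to 14.1, and in the right panel Input GEMIN5 averages 4.04 and Input control 5.38.

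GEMIN5 was compared with control in Input by limma on the log2 odds of PSI, fitted over 12697 events of every type whose highest PSI was at least 5 and lowest at most 95, with Benjamini-Hochberg adjustment over all of them. Of the 847 introns, 610 met that range, while 175 stayed over 95 and 62 under 5 in every library. PSI rose in 81 and fell in 14 of the 610, where 1.49% of all events rose and 1.48% fell. By boundary, 74 of 428 upstream-boundary introns rose and 5 fell, 7 of 138 downstream-boundary introns rose and 6 fell, and 0 of 44 both-boundary introns rose and 3 fell, with 1 higher and 7 lower at an unadjusted p under 0.05. Of all 12697 events, 809 were higher and 1212 lower at that unadjusted p. The boundary classes were set by reads summed over all 15 libraries, the Input GEMIN5 libraries among them. Class and change therefore share reads, and the split by boundary is a description. Choosing introns on a minimum control PSI favours lower values in the GEMIN5 libraries near the threshold. The minimum of 10 reads in every library can work the other way. Where spliced reads were low in Input GEMIN5, an intron could pass mainly through its boundary reads. How many of the 81 entered so was not counted. Through Input GEMIN5 alone, 26 of the 610 met the PSI range, and 0 of the 81 are among them. The planned fit, with equal weights and a constant 0.5 added to the reads, called 113 higher and 19 lower and called 80 of the 81 and all 14. Of all 12697 events it called 546 higher and 749 lower. The planned fit was replaced after the data had been seen, for its false calls in a check described with the processing. Without replicate 2 of Input GEMIN5 the counts were 40 higher and 3 lower, and without its replicate 3 they were 45 and 10. Leaving out replicate 1, 2, 3 or 4 of Input control gave 8, 7, 7 and 9 lower.

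The 81 introns that rose had a median Input PSI of 65.8 in GEMIN5 and 28.7 in control cells, and a median of 28.4 in Polysome GEMIN5 and 24.9 in Polysome control libraries. The PSI difference in Input ranged from 7.24 to 70.2 points, with a median of 28.1. Inner introns made up 57 of the 74 upstream-boundary introns that rose (77.0%). They were 49.2% of all 557 upstream-boundary introns and 66.3% of the other long introns. An annotated transcript ended inside 61 of the 74 (82.4%), against 228 of the 428 upstream-boundary introns tested. Of these 61 introns, 42 had one of the hexamers (68.9%), against 59.8% of the 259 upstream-boundary introns with an end inside.

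The ZNF330 intron, intron 2 of 9 in the gene of a zinc finger protein (chr4:141222492-141224486), had the largest PSI difference. Its PSI was 80.69, 87.87 and 72.22 in Input GEMIN5, against 11.21, 9.73, 12.55 and 6.91 in Input control libraries. In polysomes it was 18.33, 26.08, 15.26 and 25.90 in GEMIN5, against 43.82, 18.84, 4.59 and 12.62 in control libraries. The Input groups lay far apart and the polysome groups overlapped. The log2 odds difference in Input was 5.13 ± 0.66 (SE, limma adjusted p = 0.000753), and none of its 386 summed boundary reads was at the downstream end.

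CTTN encodes cortactin, an actin-binding protein, and its intron 4 of 16 (chr11:70407592-70409830) followed the same pattern. PSI was 90.91, 95 and 100 in Input GEMIN5, against 26.32, 28, 31.25 and 17.65 in Input control libraries. Polysome values were 15.15, 15.91, 5.38 and 44.19 in GEMIN5, against 16.67, 25.49, 7.58 and 4 in control libraries. All Input GEMIN5 values exceeded those of every other library. The Input difference was 5.83 ± 0.88 log2 odds (limma adjusted p = 0.00214), from 82 upstream and 2 spliced reads in Input GEMIN5, against 35 and 50 in Input control libraries.

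DNAJA3, a mitochondrial co-chaperone gene, had PSI of 87.65, 93.22 and 83.78 in Input GEMIN5 at its intron 3 of 11, against 22.86, 24.24, 40.98 and 37.61 in Input control libraries. Its difference was 4.05 ± 0.52 log2 odds (limma adjusted p = 0.000723). CHEK2, which encodes a DNA damage checkpoint kinase, had PSI of 87.03, 86.52 and 94.92 in Input GEMIN5, against 21.40, 27.49, 29.41 and 36.84 in Input control libraries. In both genes no library of one Input group reached the other.

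SNX24, a sorting nexin gene, had 88.89, 100 and 100 in Input GEMIN5, against 47.93, 41.02, 28.57 and 50 in Input control libraries. The SNX24 call rests on few reads, with 1 spliced read in the Input GEMIN5 libraries and 28 in the Input control libraries. RNF41, a ubiquitin ligase gene, and EIF2B5, which encodes a subunit of the eIF2B exchange factor, had mean PSI of 85.9 and 79.8 in Input GEMIN5, against 33.6 and 32.2 in Input control libraries. LIAS, the lipoic acid synthetase gene, had 75.8 in Input GEMIN5, against 24.2 in Input control libraries.

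SRSF10, whose AT-AC intron is shown above, had PSI of 25.42, 28.34 and 26.46 in Input GEMIN5, against 5.23, 2.94, 6.85 and 8.01 in Input control libraries. Its polysome values were 4.62, 2.74, 3.27 and 5.57 in GEMIN5, against 1.88, 2.79, 3.10 and 3.01 in control libraries. The Input GEMIN5 libraries lay above all others, and the Input difference was 2.68 ± 0.43 log2 odds (limma adjusted p = 0.0031). DHX15, a spliceosomal RNA helicase gene, rose to a mean PSI of 18.2 in Input GEMIN5, against 2.86 in Input control libraries. The 7 downstream-boundary introns that rose lie in BMS1, HSPB1, KIF22, NOP53, P3H3, RBM42 and UROD. HSPB1, a small heat shock protein gene, had a mean of 24.6 in Input GEMIN5, against 13.0 in Input control libraries.

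**Figure D3:**
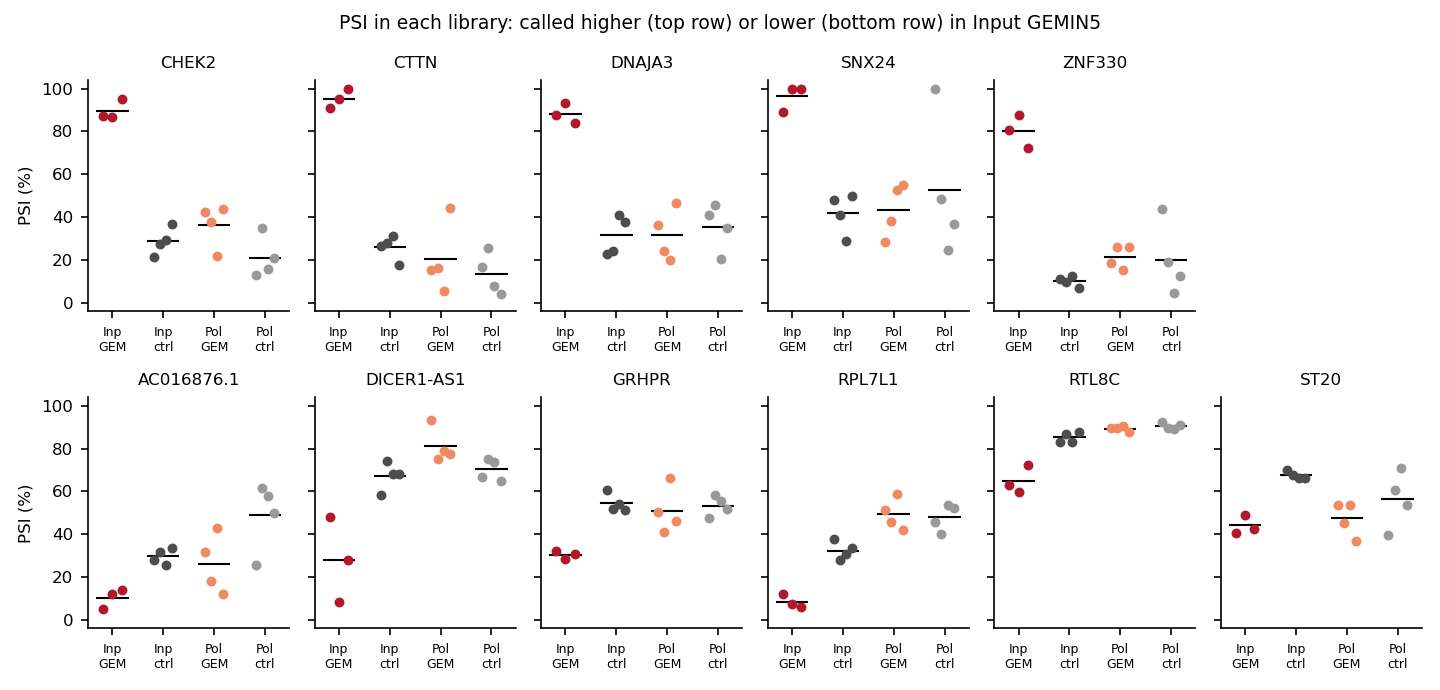
PSI (percent) in each library, one point per library with the group mean as a line, in Input GEMIN5, Input control, Polysome GEMIN5 and Polysome control, for 5 introns that rose (top row) and 6 that fell (bottom row) in Input GEMIN5. In the top row the Input GEMIN5 points lie at 72.22 or above, and in the bottom row they lie below the Input control points.

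The reads behind the ratio were compared on each of 2 scales for the 74 upstream-boundary introns that rose. On total counts, spliced reads were lower in Input GEMIN5 than in Input control at all 74 of these, with a median log2 change of -1.76 on the scale of log2(RPM + 0.1), RPM being reads scaled to the total of gene-assigned reads, and their upstream reads were higher in 52, with a median of 0.35. The 74 were picked on these libraries by the ratio of the same reads, and over all 557 upstream-boundary introns the median change was -0.13 for upstream reads, with 242 above 0, and -0.55 for spliced reads, with 115 above 0. Total counts as the scale put the median of all 12197 tested genes at -1.23. With TMM-scaled totals, which put that median at -0.02, upstream reads were higher in 71 of the 74 (median 1.55) and spliced reads were higher in 8 (median -0.94), and over the 557 the medians were 0.98 (476 above 0) and 0.10 (303 above 0). Spliced reads of the other long introns had a median change of -1.08 on total counts and 0.18 on TMM-scaled totals. The ratio of spliced reads at the last to those at the first measured intron of a gene, over introns that are not among the 847, had a median log2 of 0.994 ± 0.042 in Input GEMIN5 (SD, n = 3), against 0.464 ± 0.049 in Input control, 0.559 ± 0.077 in Polysome GEMIN5 and 0.617 ± 0.17 in Polysome control libraries (n = 4 each). The part of this positional difference in the PSI changes was not tested.

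**Figure D4:**
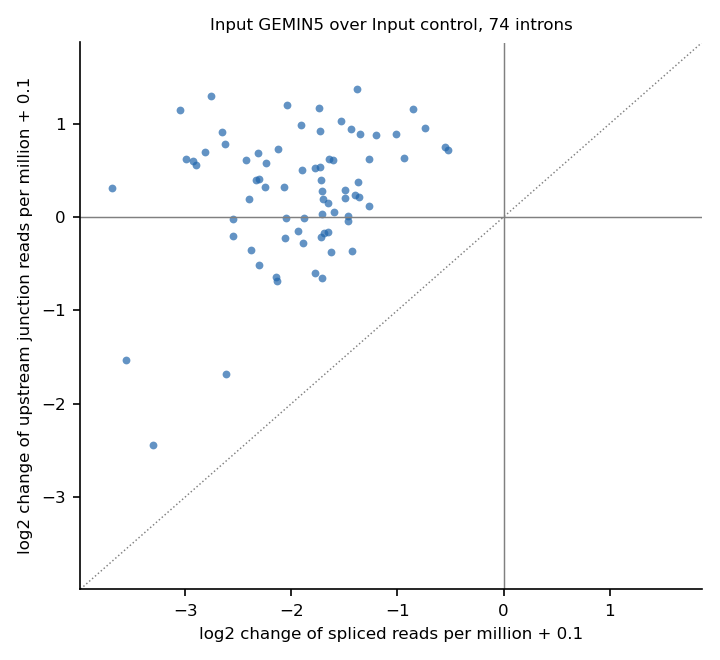
Log2 change of spliced reads (x axis) and of upstream boundary reads (y axis), as log2(RPM + 0.1), Input GEMIN5 over Input control, for the 74 upstream-boundary introns that rose. The dotted line marks equal change; all 74 points lie left of 0 on the x axis and 52 lie above 0 on the y axis.

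Both-boundary introns fell or did not pass the test. RPL7L1, a ribosomal protein L7-like gene, had PSI of 12.20, 7.32 and 5.88 in Input GEMIN5 at the last of its 6 introns, in the 3′ UTR, against 37.66, 27.73, 30.71 and 33.33 in Input control libraries. Its polysome values were 51.08, 45.60, 58.68 and 41.75 in GEMIN5, against 45.64, 39.91, 53.70 and 52.08 in control libraries. The Input groups did not overlap and the polysome groups did, and the Input difference was -2.34 ± 0.40 log2 odds (limma adjusted p = 0.00443). RTL8C, a gene of retrotransposon origin with near-identical copies whose reads may be shared, had PSI of 63.12, 59.82 and 72.27 in Input GEMIN5, against 82.99, 87.02, 83.20 and 87.65 in Input control libraries (log2 odds -1.63 ± 0.31, limma adjusted p = 0.0107). KHSRP, an RNA-binding protein of mRNA decay and splicing, had PSI of 13.22, 0.00 and 10.87 in Input GEMIN5, against 19.96, 49.11, 32.99 and 32.30 in Input control libraries, which did not pass the test (limma adjusted p = 0.0687). GTF2I, a transcription factor gene with near-identical pseudogene copies whose reads may be shared, fell, with a mean PSI of 4.42 in Input GEMIN5, against 16.1 in Input control libraries. At other both-boundary introns, ATXN2L had 52.2 in Input GEMIN5 against 44.2 in Input control, and SLC41A3 had 57.4 against 70.3, and neither passed the test.

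Among the upstream-boundary introns that fell was GRHPR, which encodes a glyoxylate reductase. Its PSI was 32.02, 28.46 and 30.83 in Input GEMIN5, against 60.87, 51.96, 53.94 and 51.42 in Input control libraries (log2 odds -1.45 ± 0.32, limma adjusted p = 0.0233). Downstream-boundary introns that fell include those of DICER1-AS1, an antisense gene (28.1 in Input GEMIN5, against 67.2 in Input control libraries on average), and ST20 (44.1 against 67.5).

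GEMIN5 was also compared with control in polysomes, where no intron of the 610 was called by limma. At an unadjusted p under 0.05, 17 were higher and 27 lower, against 335 and 434 of all 12697 events. The share of all events called in polysomes was 0.0% higher and 0.00788% lower. The test of whether the GEMIN5 effect differed between polysomes and Input called 27 introns lower and 3 higher, where 0.433% of all events were lower and 0.276% higher. All 27 were upstream-boundary introns and included ZNF330 (log2 odds difference -4.37), CTTN (-5.31), DNAJA3 (-4.33) and RNF41 (-3.79). That difference uses the same Input libraries as the comparison above, so the 27 are not separate support for it. The count of lower introns was 17, 8 and 17 without replicate 1, 2 or 3 of Input GEMIN5, 11 to 14 without replicate 2, 3 or 4 of Input control, and 12 without replicate 2 of Polysome control or replicate 2 or 3 of Polysome GEMIN5. It was 3 (and 0 higher) with the replicate number as a block, 38 (and 5 higher) in the planned fit and 50 (and 5 higher) in a limma fit to the inclusion share. Of all 12697 events the planned fit called 129 lower and 117 higher.

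Polysomes were set against Input within each kind of cell. In GEMIN5 cells 19 introns were higher and 99 lower in polysomes, where 2.07% of all events were higher and 2.36% lower. The planned fit called 26 introns higher and 134 lower, and 811 and 669 of all 12697 events. Upstream-boundary introns made up 90 of the 99 and both-boundary introns 4 of the 19. The Input GEMIN5 libraries are shared with the comparison above, and 67 of its 81 introns were among the 99. Of the 610 introns, 26 met the PSI range through Input GEMIN5 alone and 7 through Polysome GEMIN5 alone. Entry through a group compared here favours a call, and how many of the 99 and the 19 entered so was not counted. KHSRP rose to 51.3 in Polysome GEMIN5, against 8.03 in Input GEMIN5 libraries (log2 odds 3.97 ± 0.77, limma adjusted p = 0.0081).

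In control cells 0 introns were higher and 3 lower in polysomes than in Input by limma, where 0.0394% of all events were higher and 0.0788% lower, and 35 were higher and 39 lower at an unadjusted p under 0.05, against 471 and 440 of all 12697 events. All 3 were downstream-boundary introns. UBAP2L, which encodes a stress granule protein, had PSI of 4.55, 0.85, 0.79 and 1.12 in Polysome control, against 27.87, 26.67, 20 and 32.20 in Input control libraries (log2 odds -3.91 ± 0.41, limma adjusted p = 0.000781). GAS5, a noncoding host gene of snoRNAs, had 2.26, 1.37, 2.03 and 3.63 in Polysome control, against 10.96, 13.24, 9.44 and 11.07 in Input control libraries. C6orf48, another snoRNA host gene, had a mean of 1.02 in Polysome control, against 11.5 in Input control libraries. For each of the 3 introns, every polysome library lay below every Input library. GAS5 was also lower in Input GEMIN5, at 0.73, 0.45 and 0.22, against those Input control values (limma adjusted p = 4.1e-05).

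Host gene lists held few of the introns. Of all introns tested, 13.3% were higher and 2.3% lower in Input GEMIN5, where 1.49% and 1.48% of all events were. The lists are too small to be set against these shares, so their counts are a description. SR proteins and their kinases had 3, with 1 higher in Input GEMIN5, hnRNP proteins 2, spliceosome proteins and helicases 5, with 2 higher, and translation factors 6, with 1 higher. Matched by the symbols of the table, snoRNA host genes had 3, with 1 lower, ribosomal proteins 5, DNA repair and cell cycle 2, with 1 higher, and aminoacyl-tRNA synthetases and NF-kB and interferon genes 1 each. The SMN complex, nonsense-mediated decay, stress response and O-GlcNAc and metabolism lists had 0. C6orf48, also a snoRNA host gene, is not counted there, since the list held it under another symbol, and its PSI also fell in Input GEMIN5.

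Gene levels of the hosts were compared by edgeR in Input. ZNF330 had 80.0 ± 6.24 CPM (TMM-scaled) in Input GEMIN5 (SD, n = 3), against 57.3 ± 3.24 CPM in Input control libraries (n = 4). edgeR put the ZNF330 log2 fold change at 0.48, with an SE of 0.161 and an adjusted p of 0.0179. CHEK2 had 38.8 ± 3.94 CPM in Input GEMIN5, against 57.1 ± 1.67 CPM in Input control libraries (edgeR adjusted p = 0.00484), and DNAJA3 had 57.7 ± 8.49 CPM in Input GEMIN5, against 57.8 ± 4.0 CPM in Input control libraries. With library size alone in place of TMM the log2 fold change was -0.82 for ZNF330, and for DNAJA3 it was -1.31, against -0.003 with TMM. Of the 521 tested hosts of the 847 introns, 303 were higher and 65 lower, where 27.1% of all tested genes were higher and 24.4% lower. These counts rest on TMM scaling. They are also affected by the choice of introns, which asked for a minimum of reads in every library, Input GEMIN5 among them. Most tested genes had lower values there on total counts, so that minimum can favour hosts that are higher in Input GEMIN5. The host counts are therefore a description, and the part of this choice in them was not tested. The median log2 change of all 12197 tested genes was -1.23 on total counts and -0.02 on TMM-scaled totals.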

How the data were processed

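For each event the authors deposited a percent (the PSI) and a text score of its read counts, per the file headers, and gene values as raw read counts per gene. The submitters' processing notes name STAR 2.7.10a and featureCounts, and builds hg38 and GRCh38; the tool that made the splicing table is not given in the sources used here. In a check of 1144515 values, 100% of the PSI differed by at most 0.5 points from the share of reads for inclusion.

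The introns and gene lists were chosen with earlier results of these data known. Log2 odds of all 15 libraries entered limma 3.58.1 (trended, robust moderation) after adding 0.5, scaled to depth, and each value weighted by its expected binomial variance plus 0.1; an adjusted p under 0.05 was called. The planned fit (constant 0.5, equal weights) failed on simulated reads, where 74 of 155 calls were of unchanged events. In all, 27 fits were compared on simulated reads and one was taken after the counts in the real data were visible for 16 of them; over the 27, 55 to 116 of the introns were higher and 5 to 22 lower in Input, with 0 both-boundary introns higher. The simulated noise variance (0.09) is close to the 0.1 added, which favours the fit taken. With it, 5 of 55 calls were of unchanged events, and events set to differ by 10, 20 and 30 PSI points were called in 2.99%, 26.9% and 45.5% of cases. A fit of limma to the inclusion share recovered 77.3% at 30 points, with 14 of 122 calls of unchanged events, called 110 introns higher and 17 lower, and was not taken. Fits with 1 added, scaled to depth, did better on both counts than the fit taken: with an extra variance of 0.05 within the event, 4 of 75 calls were of unchanged events, 57.6% was recovered at 30 points, and 84 introns were higher and 13 lower; with weights from reads alone these were 3 of 73, 54.5%, 71 and 11. The few reads per intron limit precision, and tests cover counting error and spread between libraries only.

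Gene counts were fitted with edgeR 4.0.16 (quasi-likelihood, TMM), with DESeq2 1.42.0 as an alternative. Splice sites, locations and transcript ends came from GENCODE 29 on GRCh38. The naming rule took the 10 introns of highest control PSI, the 6 called introns per direction and comparison with the largest PSI difference and groups that do not overlap (overlap allowed for the difference of effects), 3 on each side of the threshold, the longest 3 and up to 3 per gene list. DHX15, GTF2I, ATXN2L, SLC41A3 and the 7 downstream-boundary introns that rose were named after their values were seen. A few introns that the rule names are not reported here.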

Additional observations from a re-analysis of the deposited data

Results flagged for a closer look

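The GEMIN5 effect on PSI differed between polysomes and Input in 9 named introns, by limma's test of that difference. The log2 odds difference, polysomes minus Input, was -4.37 for ZNF330, -5.31 for CTTN, -4.33 for DNAJA3, -3.79 for RNF41, -3.35 for LIAS and -3.31 for EIF2B5, all upstream-boundary introns. It was 2.42 for RPL7L1, an intron with reads at both boundaries, and 3.66 for C6orf48 and 4.67 for GAS5, both downstream-boundary introns. In 9 of 159 groups of 4 libraries, over the introns that the naming rule chose, the PSI of one library stood apart from the other 3; chance gives about 1 in 20 such groups. In Polysome control the separate values were 42.86 for RNF41, against 20.43 to 21.88 in the others, 20 for LIAS, against 29.41 to 30.43, 4.55 for UBAP2L, against 0.79 to 1.12, 0.0 for ATP23, against 2.39 to 2.64, 18.02 for HNRNPC, against 15.28 to 15.71, and 5.56 for CDK1, against 2.97 to 3.3. In Input control they were 12.37 for PCBP2, against 10.12 to 10.5, and 99.9 for RPS20, and in Polysome GEMIN5 99.95 for RPS20, against 100 in the others. Without its separate library, the log2 odds difference above was -3.48 for RNF41 and -3.53 for LIAS, and polysomes minus Input in control cells was -4.16 for UBAP2L, and all 3 were still called.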

How the results depend on the processing

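Counts are of called introns, higher then lower. For GEMIN5 against control in Input (81 and 14), no filter on the PSI range gave 36 and 6, the replicate block 29 and 3, the 2 groups alone 42 and 8, and both-boundary introns alone 0 and 3; leaving out one library gave 40 to 79 and 3 to 14. For the difference of effects (3 and 27), no PSI filter gave 1 and 5, no trend or robust moderation 1 and 12, limma on the inclusion share 5 and 50, the replicate block 0 and 3, both-boundary introns alone 1 and 0; 1 added gave 5 higher, equal weights with a constant 0.5 gave 5 and with 0.5 scaled to depth 6; leaving out one library gave 1 to 5 and 8 to 27, the lowest without replicate 2 of Input GEMIN5. For polysomes against Input in control cells (0 and 3), 20 reads gave 1 and 6, 1 added, weights with a constant 0.5 and the 2 groups alone gave 1 higher each, the replicate block gave 1 lower and both-boundary introns alone 0 lower; leaving out one library gave 0 to 1 and 1 to 4. In GEMIN5 cells (19 and 99), no PSI filter gave 12 and 52, the 2 groups alone 5 and 57, both-boundary introns alone 4 and 0; leaving out one library gave 12 to 23 and 64 to 106. In polysomes, leaving out replicate 4 of Polysome GEMIN5 gave 1 lower, and otherwise 0. The mean PSI in place of the median was 42.1 in Input GEMIN5, 38.5 in Input control, 38.3 in Polysome GEMIN5 and 38.5 in Polysome control; 20 reads gave a median of 19.5 in Input GEMIN5; both-boundary medians were 4.04, 5.38, 6.27 and 5.96 in the same order. With library size only, host gene log2 changes turned to -0.816 for ZNF330, -0.759 for SNX24 and -0.693 for GRHPR; DNAJA3 (-0.003) was -1.309 with library size only, which passed the test, 0.027 under the replicate block and -0.243 to 0.1 when one library was left out. Over the named introns, 636 of 827 alternatives kept direction and call, 191 lost the call and 0 turned direction. The fits to the inclusion share and with equal weights and 0.5 scaled to depth were chosen after seeing the data, as was the fit that gave the reported counts. Same-numbered libraries correlated at -0.0177 to 0.0338 over events and at -0.5615 to 0.4925 over genes, and not every pair was over 0.1, so the numbers are not taken to pair them. The cause of each change was not tested. Few reads per intron limit small changes: 31 of the 81 introns had under 20 reads in some library.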
